A study of Bos taurus with 30 samples.

Results

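The regional pattern of the bovine uterine lining was compared between cows carrying a cloned embryo, produced by somatic cell nuclear transfer (SCNT), and cows carrying an embryo fertilised in vitro and then transferred (IVF-ET). The members are the arrays labelled with these 2 kinds of pregnancy: 18 arrays of 9 animals, of 30 arrays of 15 animals in the study. There were 10 arrays of 5 SCNT animals and 8 arrays of 4 IVF-ET animals. A further IVF-ET animal, replicate 3, was left out because the labels give both its arrays 1 dye orientation. Each array was hybridised with RNA of both endometrial regions of 1 animal, one in Cy3 and the other in Cy5, and the dyes were exchanged between the 2 arrays of an animal. Both groups carried a transferred embryo, and the labels state no drug, genotype, age or day of pregnancy. The replicates are different animals, as the animal codes in the labels show.

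In ruminants the placenta attaches only at the caruncles, raised stromal sites without glands, while the intercaruncular endometrium between them carries the glands whose secretions feed the early embryo. The elongating embryo secretes interferon tau, which maintains the pregnancy and induces interferon-stimulated genes in the endometrium. Cloned bovine embryos are known for high losses around implantation and for abnormal placentas. The comparison asks whether the difference between the 2 regions is the same in the 2 kinds of pregnancy.

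Each value is a deposited log ratio of the 2 regions of an animal, taken here as log2 since the base is not given in the sources used here. Which region is positive is not settled, so ratios are given with their deposited sign. A "difference" below is the mean SCNT ratio minus the mean IVF-ET ratio, and a negative difference means that the ratio lay lower in SCNT animals. It does not say in which region the level differed. In these bulk samples fewer cells of a type and less RNA per cell cannot be told apart, and since a ratio gives no level, the labelled tissue could not be checked against the levels of its markers.

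Of 13824 probes, 13820 were tested, and they named 8073 genes. The arrays held 27298 to 27643 spots with a value, and adjacent duplicate spots correlated at r between 0.644 and 0.940. The 2 arrays of an animal agreed weakly: over probes they correlated at 0.300, -0.0127, -0.318 and -0.164 in IVF-ET replicates 1, 2, 4 and 5, and at 0.0826, 0.107, 0.232, 0.300 and 0.654 in SCNT replicates 1 to 5. With the dye effect of each probe taken off, these became 0.426, -0.0104, -0.0109 and 0.0530 in IVF-ET animals, and 0.310, 0.244, 0.172, 0.160 and 0.789 in SCNT animals. In 3 of 4 IVF-ET animals, then, the arrays shared almost no pattern over all probes. The number of arrays limits the precision. The labels number the IVF-ET arrays 29 to 38 and the SCNT arrays 39 to 48, so the order of the arrays cannot be told apart from the kind of pregnancy.

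SCNT replicate 5 stood apart. In this animal 1264 probes (9.15%) had a ratio beyond 1 in either direction, against 41 to 144 probes in each of the other 8 animals. Of its probes, 345 lay below -2 and 6 above 2. Its ratios correlated at a median of 0.133 with those of the other SCNT animals, against a median of 0.378 among these, and at a median of -0.0156 with the IVF-ET animals. Differences and list medians that this animal moved by over 1.5 times are given with and without it.

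No gene's regional ratio passed the test of a difference between SCNT and IVF-ET pregnancies. In limma's moderated test 0 of 13820 probes passed an adjusted p of 0.05 (0%), and the smallest adjusted p was 0.875. An unadjusted p under 0.05 was reached by 673 probes (4.87%), 311 with a positive and 362 with a negative difference. The 9 animals did not overlap between the groups for 312 probes (2.26%), of which 153 lay higher (1.11%) and 159 lower (1.15%) in SCNT animals. Without SCNT replicate 5 the count stayed at 0, with a smallest adjusted p of 0.921 and 695 probes under the unadjusted 0.05.

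The intervals show what size of difference the 9 animals could show. The median standard error of a difference was 0.15, and the median half-width of its 95% interval was 0.33. For 13106 probes (94.8%) the whole interval lay between -1 and 1, which on the log2 scale is a doubling or halving of the ratio. A difference larger than 1 in either direction was measured for 37 probes. The median size of a difference was 0.12.

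A mean regional ratio away from 0 was found in the 9 animals together. The mean ratio over the 9 animals passed limma's test against 0 for 555 probes (4.02%), 289 of them positive and 266 negative. Over all probes the SCNT mean and the IVF-ET mean correlated at r = 0.454 (0.617 without SCNT replicate 5), a description over probes that share the array design and are not independent. All 555 lay on the same side of 0 in both group means, but since they were chosen by the mean of all 9 animals, a like side is in part built into the choice and supports nothing further. In the plot of group means, H19, PTN and GJA1 lie at the negative end and HPGD, CCN2 and GUCY1B1 at the positive end.

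**Figure D1:**
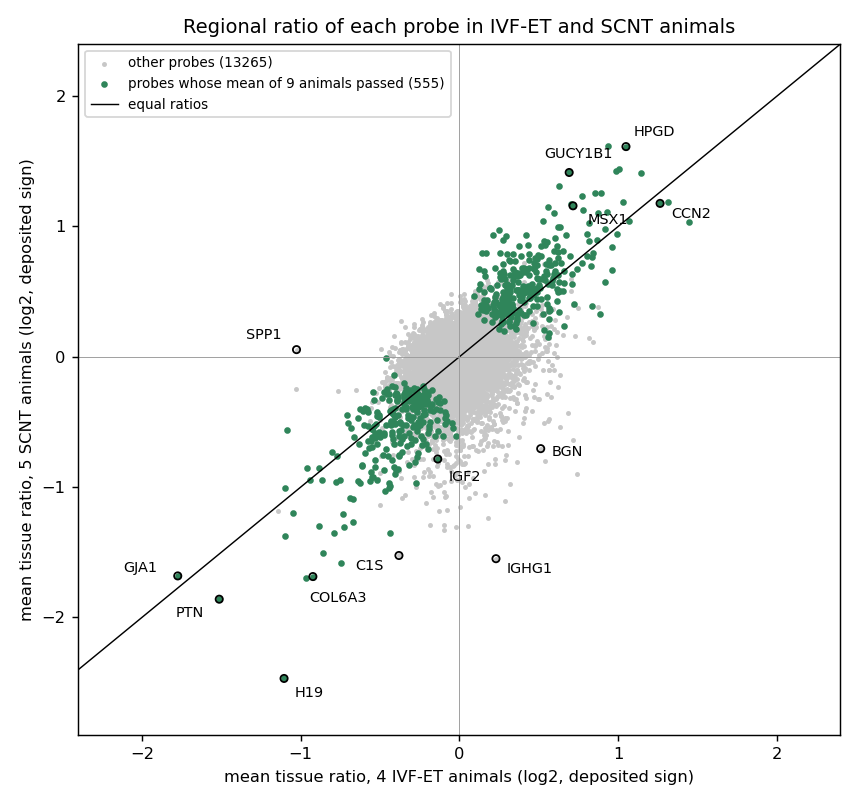
Mean tissue ratio of each of 13820 probes (log2, deposited sign) in 4 IVF-ET animals (horizontal axis) and 5 SCNT animals (vertical axis), with the 555 probes whose mean over 9 animals passed the test against 0 in green and the line of equal ratios in black. All green points lie on one side of 0 in both groups, and H19 lies farther from 0 in SCNT animals (mean -2.47) than in IVF-ET animals (mean -1.10).

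Within this regional set the mean ratio was more often larger in SCNT animals. The mean lay farther from 0 in SCNT than in IVF-ET animals for 423 of the 555 probes (76.2%), against 57.6% of all probes. The median ratio towards the probe's own side was 0.52 in the SCNT mean and 0.38 in the IVF-ET mean. By animal it was 0.552, 0.350, 0.275 and 0.357 in IVF-ET replicates 1, 2, 4 and 5, and 0.566, 0.502, 0.494, 0.398 and 0.556 in SCNT replicates 1 to 5. The groups overlapped: IVF-ET replicate 1 lay among the SCNT animals, and the other 3 IVF-ET animals lay below all 5 SCNT animals. An unadjusted p under 0.05 was reached by 74 of the 555 (13.3%), and 67 of these lay farther from 0 in SCNT animals. Without SCNT replicate 5 the set held 1148 probes, of which 740 (64.5%) lay farther from 0 in SCNT animals, against 50.9% of all probes. When the values were read as dye ratios, the set held 124 probes, and 29.0% of these lay farther from 0 in SCNT animals, against 43.6% of all probes, so the direction turned. With IVF-ET replicate 3 added, the set held 861 or 0 probes, depending on which of its arrays was turned. The mean over the animals and the difference are independent only where both groups have the same spread, and the median SD among animals was 0.232 in SCNT (0.170 without replicate 5) and 0.181 in IVF-ET animals. The share that the weak agreement of the IVF-ET arrays has in the smaller ratios was not tested.

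Over all probes the spread of the ratio within an animal did not separate the groups. The SD over probes was 0.279, 0.261, 0.216 and 0.291 in IVF-ET replicates 1, 2, 4 and 5, and 0.320, 0.267, 0.274, 0.216 and 0.701 in SCNT replicates 1 to 5. Apart from SCNT replicate 5 the animals cover the same range. The means were 0.356 ± 0.196 (SD, n = 5) in SCNT and 0.262 ± 0.033 (SD, n = 4) in IVF-ET animals, a difference of 0.0938 that gave p = 0.548 in an exact two-sided permutation test over 126 arrangements, where the smallest possible p is 0.0159. Without replicate 5 the SCNT mean was 0.269 ± 0.043 (SD, n = 4).

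**Figure D2:**
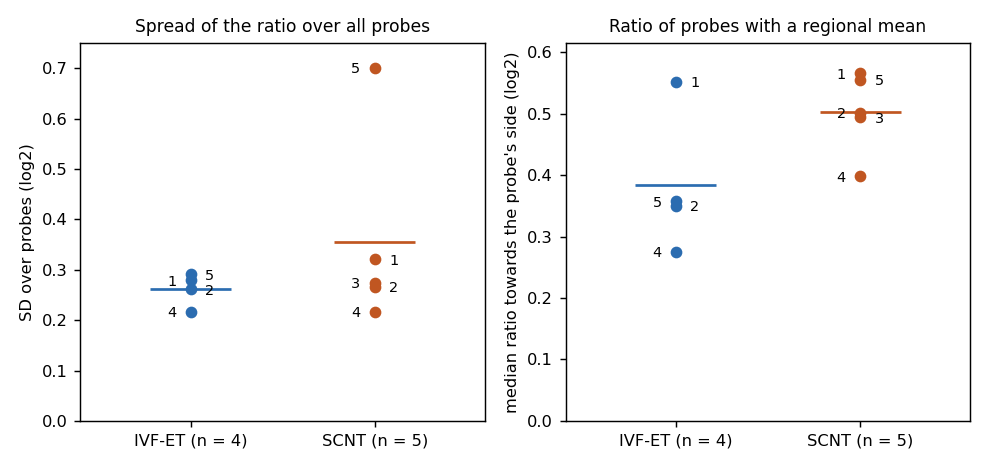
SD of the tissue ratio over all probes in each animal (left, log2) and median ratio of the 555 regional probes towards their own side (right, log2), with replicate numbers beside the points and lines at the group means (4 IVF-ET and 5 SCNT animals). SCNT replicate 5 lies at 0.701 on the left, above all other animals, while on the right it lies at 0.556, within the range of the other animals.

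The regional genes on the positive side included a prostaglandin-degrading enzyme, matrix proteins and a nitric oxide receptor subunit. They were chosen as the 8 named genes with the largest mean over 9 animals and the same sign in every animal: HPGD, LOC613966, CCN2, SLC18A2, GUCY1B1, MCOLN2, MGP and MSX1. HPGD, the enzyme that inactivates prostaglandins, had ratios of 1.76, 0.38, 0.75 and 1.31 in IVF-ET replicates 1, 2, 4 and 5 and 0.96, 1.62, 1.81, 1.72 and 1.95 in SCNT replicates 1 to 5. The groups overlapped, and the difference was 0.56 ± 0.28 (SE). GUCY1B1, a subunit of the soluble guanylate cyclase that senses nitric oxide, had ratios of 0.98, 0.83, 0.09 and 0.86 in IVF-ET animals and 1.43, 2.08, 1.04, 1.14 and 1.38 in SCNT animals. Every SCNT animal lay above every IVF-ET animal. The difference was 0.72 ± 0.24 (SE), with an unadjusted p of 0.0111 and an adjusted p of 0.875 in limma. All arrays were positive, and the 2 arrays of an animal differed by a median of 0.0985. Reading the values as dye ratios turns 1 array of each animal, and the difference was then 0.015.

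MSX1, a homeobox factor that prepares the uterine lining for implantation, had the most even ratios among animals of this side. Its 2 arrays of an animal, dye effects included, differed by a median of 0.54 and by up to 1.61. They were 0.82, 0.80, 0.68 and 0.56 in IVF-ET animals and 1.11, 1.07, 1.25, 1.40 and 0.97 in SCNT animals. The groups did not overlap, and the difference was 0.44 ± 0.12 (SE; limma, unadjusted p = 0.00317, adjusted p = 0.875). A second MSX1 probe had a difference of -0.10, so the probes disagree. CCN2, a matricellular protein of connective tissue, had a mean of 1.26 ± 0.44 (SD, n = 4) in IVF-ET and 1.18 ± 0.34 (SD, n = 5) in SCNT animals. Its difference of -0.09 had a 95% interval from -0.58 to 0.41, and it was -0.24 without SCNT replicate 5. MGP, an inhibitor of calcification, ranged from 0.03 to 1.44 in IVF-ET and from 0.29 to 2.17 in SCNT animals, with an interval of the difference from -0.71 to 1.08, and the difference turned from 0.19 to -0.08 without SCNT replicate 5. SLC18A2, a vesicular transporter of monoamines, differed by 0.16 ± 0.39 (SE), or 0.34 without SCNT replicate 5, and MCOLN2, an endolysosomal cation channel, by 0.40 ± 0.28 (SE). LOC613966 differed by 0.68 ± 0.23 (SE), with IVF-ET replicate 1 (1.59) above 3 of 5 SCNT animals.

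The regional genes on the negative side, chosen likewise, included an imprinted RNA, a gap junction protein and genes of stroma and matrix: H19, GJA1, PTN, COL3A1, COL6A3, SFRP1, LOC513055 and STRA6. GJA1, the connexin through which stromal cells are coupled, had ratios of -1.88, -1.62, -2.06 and -1.53 in IVF-ET animals and -1.92, -1.48, -1.70, -2.33 and -0.98 in SCNT animals. The groups overlapped, with a wider range in SCNT animals, and the interval of the difference ran from -0.43 to 0.62. The difference turned from 0.09 to -0.08 without SCNT replicate 5. PTN, the heparin-binding growth factor pleiotrophin, differed by -0.35 ± 0.24 (SE), and SFRP1, a secreted WNT inhibitor, by -0.28 ± 0.23 (SE). SFRP1 did not have a value on every array, and with the dye effect taken off its difference was -0.23. COL6A3, a chain of type VI collagen, had ratios of -1.47, -0.78, -0.81 and -0.64 in IVF-ET animals and -1.90, -1.51, -1.04, -1.52 and -2.46 in SCNT animals. Only SCNT replicate 3 and IVF-ET replicate 1 overlapped, and the difference was -0.76 ± 0.27 (SE), or -0.57 without SCNT replicate 5. COL3A1, the chain of type III collagen, had a difference of -0.74, which was -0.22 without SCNT replicate 5, whose ratio was -3.79. STRA6, the membrane receptor that takes up retinol, differed by -0.41 ± 0.23 (SE), and LOC513055 by -0.15 ± 0.22 (SE), or -0.26 without SCNT replicate 5.

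**Figure D3:**
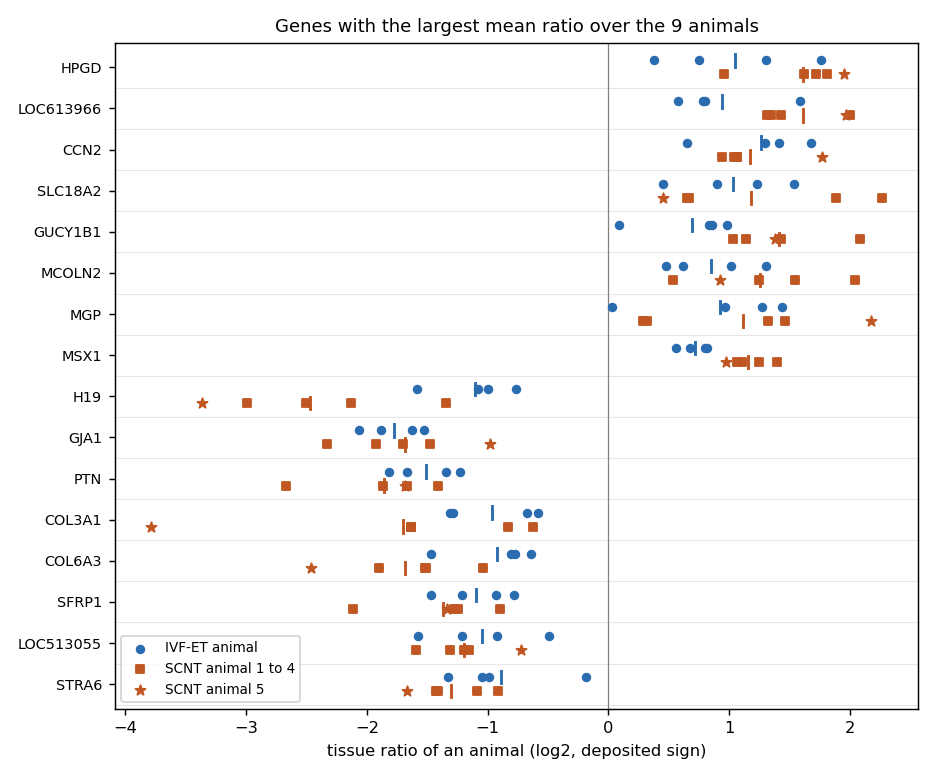
Tissue ratio (log2, deposited sign) of each animal for the 16 named genes with the largest mean over 9 animals and the same sign in all of them, with IVF-ET animals as blue circles, SCNT animals 1 to 4 as orange squares, SCNT animal 5 as an orange star and vertical ticks at the group means. The groups overlap for most genes; MSX1 and GUCY1B1 have every SCNT animal above every IVF-ET animal.

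H19 and IGF2, a pair of oppositely imprinted neighbours that act in fetal growth, were among the 10 genes with the smallest p and a negative difference. H19, a long non-coding RNA expressed from the maternal allele, had ratios of -1.58, -0.99, -1.08 and -0.77 in IVF-ET animals and -2.51, -2.99, -1.34, -2.13 and -3.37 in SCNT animals. Of the SCNT animals, only replicate 3 lay within the IVF-ET range. By array the H19 ratios ran from -2.09 to 0.09 in IVF-ET and from -3.75 to -1.19 in SCNT animals. The 2 arrays of an animal, dye effects included, differed by a median of 0.87 and by up to 2.17. The mean was -1.10 ± 0.34 (SD, n = 4) in IVF-ET and -2.47 ± 0.79 (SD, n = 5) in SCNT animals, a difference of -1.36 ± 0.35 (SE; limma, unadjusted p = 0.00284, adjusted p = 0.875). Without SCNT replicate 5 the difference was -1.14. IGF2, the growth factor expressed from the paternal allele, had ratios of -0.64, 0.08, -0.03 and 0.05 in IVF-ET animals and -0.80, -0.58, -0.79, -0.80 and -0.96 in SCNT animals. IVF-ET replicate 1 lay among the SCNT animals, and the other 3 IVF-ET animals lay near 0. The difference was -0.65 ± 0.16 (SE; limma, unadjusted p = 0.00181, adjusted p = 0.875), or -0.60 without SCNT replicate 5. In the reference assembly ARS-UCD2.0 the genes lie on 1 chromosome with 3 annotated entries between them. Of the 21 measured genes of the imprinted list, 0 had an unadjusted p under 0.05 with a positive difference and 2 with a negative one. The 2 were this pair. Over all named genes these shares were 2.22% and 2.95%. The median difference of the list was -0.05, or -0.03 without SCNT replicate 5.

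Of the genes with a positive difference, the 10 with the smallest p were PPP3CB, PCP4, MSRB3, THAP4, C19H17orf75, MSX1, SPP1, ATP2A1, SPA17 and EML2. They were chosen by the p of this contrast, so their values are descriptions. PPP3CB, a catalytic subunit of the calcium-dependent phosphatase calcineurin, had ratios of -0.46, -0.55, -0.39 and -0.47 in IVF-ET animals and -0.04, -0.10, -0.01, 0.06 and 0.03 in SCNT animals. Averaged over the 2 arrays, the ratio was negative in every IVF-ET animal and near 0 in every SCNT animal. By array the groups overlapped, from -1.02 to 0.08 in IVF-ET and from -0.24 to 0.30 in SCNT animals. The 2 arrays of an animal, dye effects included, differed by a median of 0.30 and by up to 1.10. The difference of 0.45 ± 0.09 (SE) had the smallest unadjusted p of any named gene in limma, 0.00047, with an adjusted p of 0.875. PCP4, a small calmodulin-binding protein, had ratios of -0.61, -0.21, -0.30 and -0.52 in IVF-ET animals and 0.18, -0.12, 0.27, 0.17 and 0.29 in SCNT animals. ATP2A1, a calcium pump of the sarcoplasmic reticulum, had ratios of 0.03, -0.54, -0.25 and -0.18 in IVF-ET animals and 0.48, 0.24, 0.05, 0.45 and 0.21 in SCNT animals. Both genes had groups without overlap by animal, with differences of 0.57 ± 0.13 and 0.52 ± 0.14 (SE), but by array the groups overlapped.

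SPP1, the adhesive glycoprotein osteopontin that uterine glands secrete, had the largest difference of these 10 genes. Its ratios were -1.94, -1.03, -0.44 and -0.69 in IVF-ET animals and -0.46, 0.56, -0.07, 0.15 and 0.10 in SCNT animals. SCNT replicate 1 overlapped with IVF-ET replicate 4. For SPP1 the 2 arrays of an animal, dye effects included, differed by a median of 0.26 but by up to 2.72. By array the ratios ran from -3.30 to -0.31 in IVF-ET and from -0.85 to 0.63 in SCNT animals. The difference was 1.08 ± 0.29 (SE; limma, unadjusted p = 0.00348, adjusted p = 0.875). SPA17, a sperm and cilium protein, had ratios of 0.12 to 0.46 in IVF-ET and 0.41 to 1.52 in SCNT animals. MSRB3, which repairs oxidised methionine, had 4 negative ratios in IVF-ET animals and 5 positive ones in SCNT animals, with a difference of 0.64 ± 0.14 (SE), but its other probe had a difference of -0.18. For this gene the 2 arrays of an animal differed by a median of 1.00. THAP4, C19H17orf75 and EML2, the last a microtubule-binding protein, differed by 0.40, 0.40 and 0.37, each without overlap by animal. Of all named genes, 2.2% had groups without overlap, and these were chosen by p. By array the groups overlapped for each of them. The arrays for EML2 ran from -0.68 to 0.71 in IVF-ET and from -0.0039 to 0.58 in SCNT animals.

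Of the genes with a negative difference, the 10 with the smallest p were SUPT6H, RAB33A, IGF2, LAMB3, APOA1, ITCH, SFXN3, H19, MYLK2 and FAF2. SUPT6H, a histone chaperone that travels with RNA polymerase II, had ratios of 0.07, 0.20, 0.11 and 0.29 in IVF-ET animals and -0.45, -0.10, -0.31, -0.27 and -0.48 in SCNT animals. RAB33A, a small GTPase of vesicle transport, had ratios of 0.31, 0.19, 0.41 and 0.14 in IVF-ET animals and -0.28, -0.32, -0.14, -0.07 and -0.58 in SCNT animals. For both genes every IVF-ET ratio was positive and every SCNT ratio negative, with differences of -0.49 ± 0.11 and -0.54 ± 0.12 (SE; limma, adjusted p = 0.875). By array the groups overlapped, and the 2 arrays of an animal differed by a median of 0.57 for SUPT6H and 0.55 for RAB33A. LAMB3, a laminin chain of the epithelial basement membrane, had ratios of 0.60, 0.18, 0.33 and 0.42 in IVF-ET animals and 0.05, -0.18, -0.39, 0.01 and -0.13 in SCNT animals. These did not overlap, and the difference was -0.51 ± 0.13 (SE). APOA1, the main protein of high-density lipoprotein, differed by -0.56, ITCH, a ubiquitin ligase, by -0.42, and SFXN3, a mitochondrial serine transporter, by -0.45. MYLK2, a myosin light chain kinase, differed by -0.54, and FAF2, which helps to extract proteins from the endoplasmic reticulum for degradation, by -0.43. Each of these 5 had groups without overlap, as 2.2% of all named genes did, but they were chosen by the p of this contrast. By array the groups overlapped for all 5 and for LAMB3. For SFXN3 the 2 arrays of an animal differed by up to 1.75.

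Read as dye ratios, these differences were smaller. All 20 were nearer to 0, 18 kept their sign and 1 had an unadjusted p under 0.05 in limma. H19 then differed by -0.37 and IGF2 by -0.11, SPP1 by 0.22, PPP3CB by 0.14 and THAP4 by 0.019. Nearest to their values here were C19H17orf75 at 0.30, MSX1 at 0.31 and SUPT6H at -0.31.

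Part of the differences moved with the place of the spot in the deposited table. The difference correlated at -0.224 (Spearman) with table order over probes, against -0.0324 for the mean over the 9 animals, and its median was 0.04 in the upper part of the table and -0.05 in the lower. Of the 10 leading genes with a negative difference 7 lay in the lower part, and of the 10 with a positive one 2. Among the 25 probes on either side in the table, the median difference was -0.16 for SUPT6H, -0.13 for RAB33A, -0.17 for LAMB3, -0.16 for ITCH, -0.13 for APOA1 and SFXN3 and -0.14 for FAF2, each with the sign of the gene. It was -0.08 for H19, -0.05 for IGF2 and -0.0055 for MYLK2. Among the leading genes with a positive difference it was 0.10 for PPP3CB, 0.09 for THAP4 and MSRB3, 0.07 for EML2 and 0.04 for C19H17orf75. It was 0.02 for SPP1, 0.01 for PCP4 and ATP2A1, 0.0032 for MSX1 and -0.02 for SPA17. The effect that followed the dyes ran with table order too, at -0.422 (Spearman). The part of table order in these differences was not tested beyond taking off a running median over 51 probes. All 20 leading genes then kept their sign and 19 an unadjusted p under 0.05. These genes were chosen by the p of this contrast and the local medians were smaller than their differences, so the kept signs decide nothing.

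**Figure D4:**
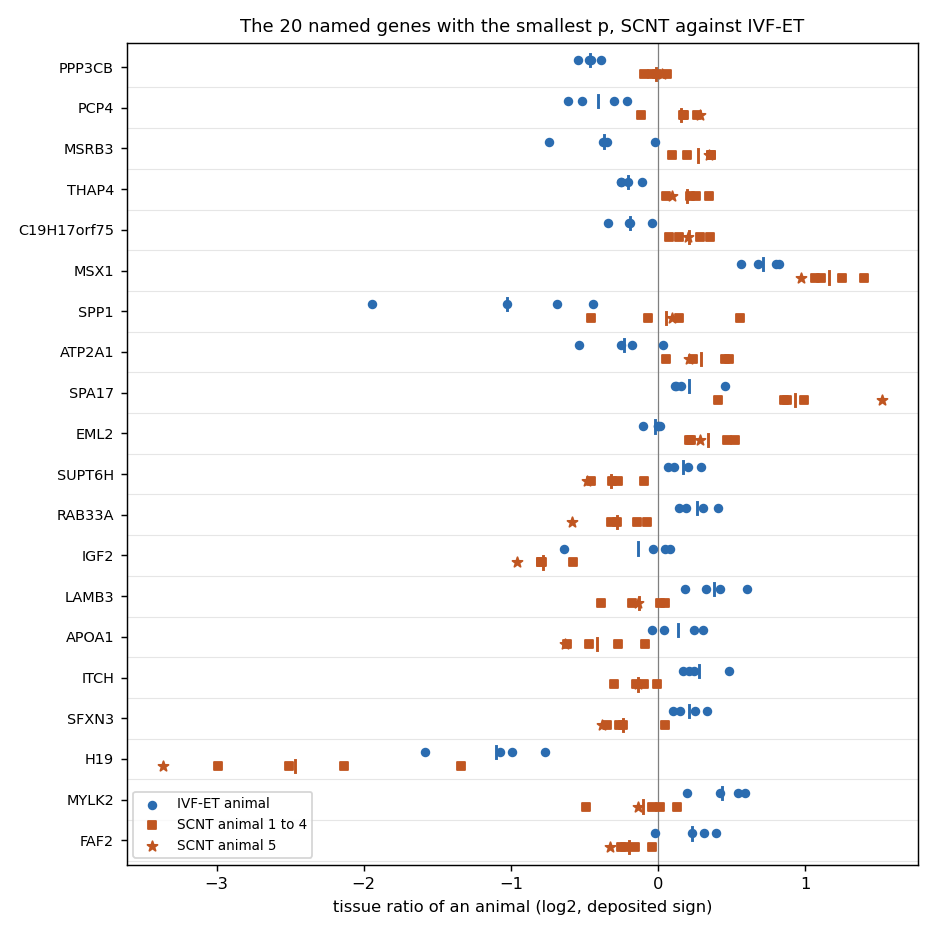
Tissue ratio (log2, deposited sign) of each animal for the 10 named genes with the smallest p and a positive difference (top) and the 10 with a negative one (bottom), with symbols as blue circles for 4 IVF-ET animals, orange squares for SCNT animals 1 to 4 and an orange star for SCNT animal 5, and ticks at the group means. PPP3CB has all IVF-ET ratios between -0.55 and -0.39 and all SCNT ratios between -0.10 and 0.06, and H19 reaches -3.37 in SCNT animal 5.

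Among genes whose groups did not overlap, the largest differences split by their dependence on SCNT replicate 5. On the positive side these were GUCY1B1, MSRB3, CCDC88C, PCP4 and LRATD1, which differed by 0.72, 0.64, 0.62, 0.57 and 0.53, and by 0.73, 0.62, 0.53, 0.53 and 0.53 without that animal. CCDC88C, a regulator of WNT signalling, has 3 probes, and the others had differences of -0.05 and -0.06. On the negative side these were the matrix proteoglycan BGN, the complement protease C1S, the basement membrane proteoglycan AGRN, the dynein motor chain DYNC1H1 and the membrane-binding protein ANXA1. BGN had ratios of 0.18, 0.40, 1.06 and 0.41 in IVF-ET animals and -0.04, -0.04, -0.05, -0.16 and -3.24 in SCNT animals. The difference of -1.22 became -0.58 without SCNT replicate 5. In that animal C1S had a ratio of -4.60, AGRN of -2.81, DYNC1H1 of -1.93 and ANXA1 of -1.73. Their differences were -1.14, -1.02, -0.74 and -0.74, and became -0.37, -0.54, -0.40 and -0.50 without it. For all 5 genes the other 4 SCNT animals also lay below every IVF-ET animal, which the choice of genes without overlap fixes and which supports nothing further. Of the named genes, 178 (2.2%) had groups without overlap.

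Interferon-stimulated genes, which interferon tau induces in the endometrium, had a lower median ratio in SCNT than in IVF-ET animals. Of 38 measured members, 34 had a negative difference, against 55.1% of all named genes, and 6 had an unadjusted p under 0.05, all negative, against 2.95% of named genes with a negative difference. None passed the adjusted threshold in limma. The median difference of the list was -0.37, against -0.02 over all named genes, and -0.20 without SCNT replicate 5. In that setting 12 members had an unadjusted p under 0.05, as did 695 of 13820 probes. By animal the median ratio of the list was 0.10, 0.09, -0.09 and -0.22 in IVF-ET replicates 1, 2, 4 and 5, and -0.07, -0.37, -0.29, -0.16 and -0.53 in SCNT replicates 1 to 5. SCNT replicates 1 and 4 lay within the IVF-ET range, and the other 3 lay below it. The median stayed negative under all 22 alternatives and was smallest, -0.05, when the values were read as dye ratios. Leukocyte genes had a median difference of 0.02 over 45 members, or -0.02 without SCNT replicate 5. Antigen presentation genes had one of -0.19 over 16 members, which was -0.07 without that animal, whose median for the list was -0.54.

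CMPK2, an interferon-induced nucleotide kinase, had ratios of 0.55, 0.38, 0.13 and -0.17 in IVF-ET animals and 0.04, -0.62, -0.44, -0.27 and -0.58 in SCNT animals. SCNT replicate 1 lay within the IVF-ET range, and the difference was -0.60 ± 0.18 (SE; limma, unadjusted p = 0.00681, adjusted p = 0.875). RSAD2, the antiviral protein viperin, had ratios of 0.72, 0.45, -0.35 and -0.17 in IVF-ET animals and -0.47, -0.62, -0.53, -0.19 and -0.11 in SCNT animals. Its IVF-ET ratios were positive in replicates 1 and 2 and negative in replicates 4 and 5, and the difference was -0.55 ± 0.22 (SE). USP18, which removes ISG15 from proteins, and ZNFX1, a helicase of RNA sensing, differed by -0.47 ± 0.19 and -0.45 ± 0.17 (SE), and USP18 by -0.31 without SCNT replicate 5. For RSAD2 and ZNFX1 the difference was 0.27 and 0.20 when the values were read as dye ratios.

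Genes of stroma and matrix had negative median ratios in all 9 animals, with a lower group mean in SCNT animals. Of 56 measured members, 21 belonged to the genes with a regional mean (2 positive and 19 negative), against 4.26% of named genes (2.25% positive and 2.01% negative), and 17 of these 21 lay farther from 0 in SCNT animals, where 76.2% of all regional probes did. Of the 56, 44 had a negative difference, against 55.1% of all named genes. An unadjusted p under 0.05 was reached by 5 with a negative and 2 with a positive difference, against 2.95% and 2.22% of named genes. The median difference was -0.24, or -0.17 without SCNT replicate 5. The median ratio of the list by animal was -0.32, -0.27, -0.05 and -0.18 in IVF-ET animals and -0.43, -0.27, -0.22, -0.33 and -0.33 in SCNT animals, so that the groups overlapped. TNC, a matrix glycoprotein of remodelling tissue, had ratios of -0.29, -0.26, -0.03 and -0.21 in IVF-ET animals and -0.57, -0.91, -0.55, -0.63 and -0.26 in SCNT animals, with a difference of -0.39 ± 0.13 (SE). MMP14, a membrane-bound collagenase, differed by -0.33 ± 0.13 (SE). ZEB1, a repressor of epithelial genes, went the other way: its ratios were -0.56, -0.53, -0.19 and -0.35 in IVF-ET animals and 0.05, -0.08, 0.01, -0.15 and 0.50 in SCNT animals. These did not overlap, and the difference was 0.47 ± 0.15 (SE; limma, unadjusted p = 0.00846, adjusted p = 0.875).

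Epithelial genes lay on the positive side, with similar medians in both groups except in SCNT replicate 5. Of 35 measured members, 11 had a regional mean, all positive, against the same 4.26% of named genes. Of these 11, 8 lay farther from 0 in SCNT animals, again beside 76.2% of all regional probes. The median ratio of the list was 0.49, 0.15, 0.35 and 0.27 in IVF-ET animals and 0.53, 0.43, 0.25, 0.43 and -0.18 in SCNT animals. Of the 35, 1 had an unadjusted p under 0.05, with a negative difference, against 2.95% of named genes, and the median difference was -0.03. Without SCNT replicate 5 there were 2 with a positive and 0 with a negative difference, and the median was -0.0049. Of all probes, 695 of 13820 had an unadjusted p under 0.05 in that setting. The gene named by all 9 animals was KRT19, a keratin of simple epithelia, with ratios from -0.28 to 1.36 in IVF-ET and from -0.95 to 0.65 in SCNT animals and a difference of -0.84 ± 0.37 (SE; limma, unadjusted p = 0.045, and 0.0625 without SCNT replicate 5). TJP1, the tight junction protein ZO-1, differed by 0.45 ± 0.23 (SE), or 0.28 without SCNT replicate 5, where it lay at 1.17. The 22 gland genes had a median difference of -0.13, or -0.01 without SCNT replicate 5, and of 0.03 when the values were read as dye ratios. Besides SPP1 they include CLU, the secreted chaperone clusterin, whose ratios were 1.10, 0.46, 1.21 and 0.76 in IVF-ET animals and 0.50, 0.26, 0.44, 0.71 and -0.28 in SCNT animals, a difference of -0.56 ± 0.21 (SE).

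Some trophoblast genes, which belong to the embryo's side of the placenta, had strongly negative ratios in SCNT replicates 3 and 4. By animal the median ratio of the list was -0.11, -0.22, -0.03 and -0.13 in IVF-ET replicates 1, 2, 4 and 5. It was -0.05, 0.14, -0.96, -0.17 and 0.12 in SCNT replicates 1 to 5, so only replicate 3 lay below the IVF-ET range. In replicate 3, 14 of 28 measured members lay below -1, in replicate 4 there were 6 and in replicate 1 there was 1, while the other 6 animals had none. TKDP1, a trophoblast Kunitz domain protein, had ratios of 0.21, -0.07, -0.03 and -0.47 in IVF-ET animals and -0.01, -0.25, -2.72, -2.38 and -0.03 in SCNT animals. PAG2, a pregnancy-associated glycoprotein of the trophoblast, had ratios of -0.11, -0.21, -0.06 and -0.34 in IVF-ET animals and 0.08, -0.11, -2.82, -2.42 and 0.07 in SCNT animals. TKDP4 lay at -2.34 and -2.12 in SCNT replicates 3 and 4 and between -0.50 and 0.20 in the other animals. Between the groups 0 of 28 members had an unadjusted p under 0.05, against 5.17% of named genes, and 0 passed the adjusted threshold in limma. The median difference was -0.07. It was 0.06 without SCNT replicate 3, 0.07 when the values were read as dye ratios, -0.21 with scaled arrays and -0.20 without SCNT replicate 5. In that last setting 2 members had an unadjusted p under 0.05, as did 695 of 13820 probes. The interferon list had medians of -0.29 and -0.16 in SCNT replicates 3 and 4, and of -0.53 and -0.37 in SCNT replicates 5 and 2. In replicates 5 and 2 no trophoblast gene lay below -1. A link between the 2 lists was not tested.

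Plasma cell and immunoglobulin genes differed by -0.06 in their median over 9 members, and 1 had an unadjusted p under 0.05, against 5.17% of named genes. It was IGHG1, a constant region of the immunoglobulin G heavy chain, with ratios of -0.49, 0.18, 0.48 and 0.74 in IVF-ET animals and -1.003, -0.40, -1.39, -1.22 and -3.73 in SCNT animals. SCNT replicate 2 and IVF-ET replicate 1 overlapped. The difference was -1.78 ± 0.56 (SE; limma, unadjusted p = 0.00926, adjusted p = 0.875) and -1.23 without SCNT replicate 5, but -0.13 when the values were read as dye ratios. IGHM, the immunoglobulin M heavy chain, differed by -0.20 ± 0.11 (SE). Of 45 leukocyte genes, 1 reached an unadjusted p under 0.05, with a positive difference: CXCL8, a neutrophil chemokine, at 0.36 ± 0.16 (SE). Of 32 complement and coagulation genes, 0 had an unadjusted p under 0.05 with a positive and 2 with a negative difference, namely CLU and the central complement protein C3 (-0.46 ± 0.19, SE).

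The IGF axis, which carries growth signals between mother and embryo, held 13 measured genes. Of these 2 had an unadjusted p under 0.05, both negative, where 2.95% of all named genes had such a value. Besides IGF2 this was HTRA1, a protease that cleaves IGF binding proteins, with ratios of -0.15, -0.05, 0.19 and 0.62 in IVF-ET animals and -0.39, -0.44, -0.26, -0.32 and -0.60 in SCNT animals. The groups did not overlap, and the difference was -0.55 ± 0.16 (SE). IGFBP6, the binding protein with a preference for IGF2, had ratios of -0.30, -0.33, -0.31 and -0.81 in IVF-ET animals and -1.70, -1.15, -0.20, -0.93 and -2.81 in SCNT animals, a difference of -0.92 ± 0.42 (SE) that was -0.55 without SCNT replicate 5. The median difference of the list was -0.16, -0.10 without SCNT replicate 5, and 0.01 when the values were read as dye ratios.

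Over all named genes, 2.22% had an unadjusted p under 0.05 with a positive and 2.95% with a negative difference. Among 31 implantation regulators, 2 had one with a positive difference (MSX1 and SPP1) and 2 with a negative difference. The latter were INHBB, a subunit of activin B and inhibin B, and CITED2, a transcriptional cofactor, at -0.40 ± 0.16 and -0.46 ± 0.19 (SE). The median difference was -0.06. Of 18 prostaglandin and oxytocin genes, 1 had an unadjusted p under 0.05: PTGDS, a prostaglandin D synthase, with a difference of -0.69 ± 0.30 (SE) that was -0.40 without SCNT replicate 5. SFRP2, a secreted WNT inhibitor, was the 1 of 24 WNT genes with an unadjusted p under 0.05, at -0.60 ± 0.27 (SE). It had a regional mean of -1.003 and was negative in all 9 animals, from -0.28 to -1.20 in IVF-ET and from -0.80 to -1.98 in SCNT animals. Of 20 steroid signalling genes, 0 had an unadjusted p under 0.05.

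Vessel genes included PLVAP, a protein of endothelial fenestrae, with ratios of 0.70, 0.56, 0.50 and 0.44 in IVF-ET animals and -0.18, 0.26, 0.44, -0.02 and -0.18 in SCNT animals. SCNT replicate 3 reached the lowest IVF-ET animal, and the difference was -0.48 ± 0.15 (SE). With GUCY1B1 (positive) and EDN1, the vasoconstrictor endothelin (-0.29 ± 0.13, SE), it was 1 of 3 members of 32 with an unadjusted p under 0.05. The share over all named genes was 5.17%. Of 20 smooth muscle genes and 8 red blood cell genes, 0 had an unadjusted p under 0.05. Of 28 calcium handling genes, 2 had one with a positive difference and 1 with a negative difference: the calcium pumps ATP2A1 and ATP2A2 (0.37 ± 0.16, SE) on one side and the calcium store protein CASQ1 (-0.25 ± 0.11, SE) on the other. ATP2A2 had SCNT replicate 5 at 0.82 and the other SCNT animals between -0.01 and 0.19, and the difference was 0.22 without it.

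For the next lists, too, the shares of all named genes under an unadjusted p of 0.05 were 2.22% positive and 2.95% negative. Glycolysis and hypoxia genes had a median difference of -0.20 over 35 members, of which 2 had an unadjusted p under 0.05, both negative. SLC16A3, the transporter that exports lactate, was one, with ratios from 0.05 to 0.37 in IVF-ET and from -0.16 to 0.04 in SCNT animals and a difference of -0.27 ± 0.10 (SE). It was also the 1 of 33 nutrient transport genes with an unadjusted p under 0.05 and a negative difference. There were 2 with a positive difference: SLC1A4, a neutral amino acid transporter, and AQP4, a water channel, with differences of 0.44 ± 0.13 and 0.52 ± 0.22 (SE). Vesicle trafficking genes with an unadjusted p under 0.05 numbered 3 of 46, all negative: RAB33A, RAB2A (-0.44 ± 0.16, SE) and RAB3A (-0.31 ± 0.12, SE). Of 33 transcription elongation genes 2 had one, both negative: SUPT6H and POLR2A, the large subunit of RNA polymerase II (-0.29 ± 0.10, SE). Around these in the table the median difference was -0.17 for RAB2A, -0.16 for RAB3A, -0.14 for SLC16A3 and -0.10 for POLR2A.

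Genes of basic cell functions lay close to the median of all genes. Of 55 ribosomal protein genes, 0 had an unadjusted p under 0.05, and the median difference was -0.04. Oxidative phosphorylation genes had a median difference of 0.01 over 69 members, with 1 unadjusted p under 0.05 in each direction. Cell cycle, heat shock and folding, endoplasmic reticulum degradation and lipid handling genes had medians of 0.01, 0.06, -0.06 and -0.05 over 39, 35, 21 and 37 members, and 1 member each under the unadjusted 0.05. Without SCNT replicate 5 the medians were 0.02 for ribosomal, 0.04 for oxidative phosphorylation, -0.02 for cell cycle, -0.0046 for degradation and -0.01 for lipid handling genes. Of the genes named above from the lists, CITED2, EDN1, RAB3A, INHBB, C3, ATP2A2 and CXCL8 then had unadjusted p between 0.0512 and 0.0664 in limma. The background over all named genes was 5.17%, with 179 positive (2.22%) and 238 negative (2.95%).

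**Figure D5:**
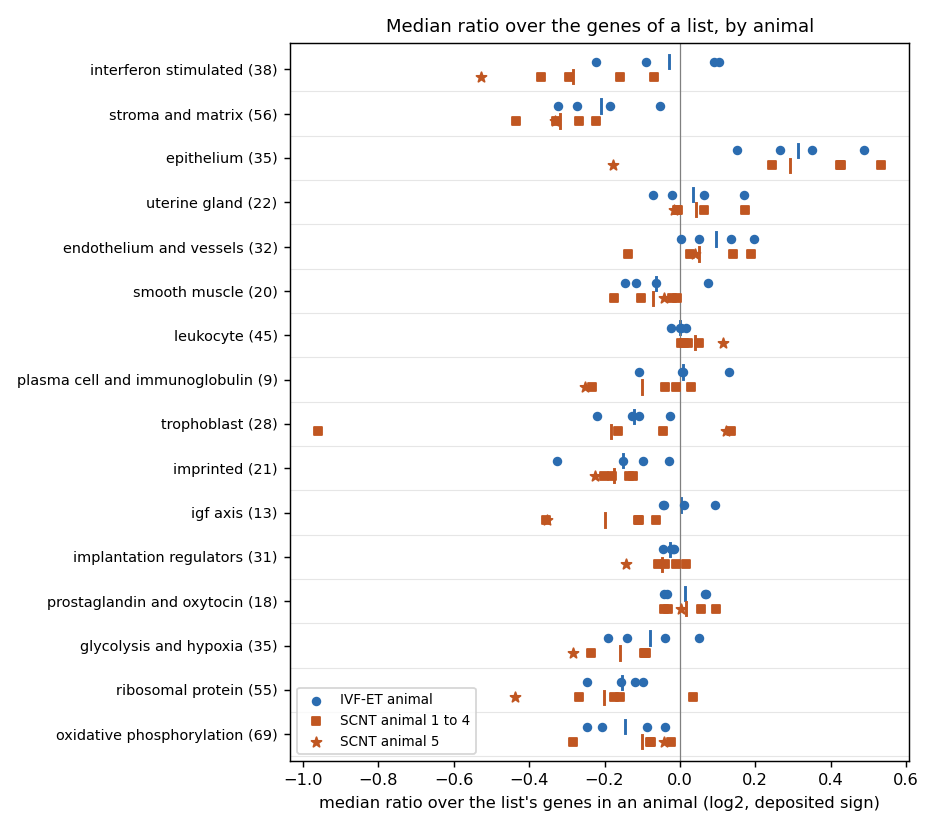
Median tissue ratio over the measured genes of 16 lists (number of genes in brackets; log2, deposited sign) in each animal, with IVF-ET animals as blue circles, SCNT animals 1 to 4 as orange squares, SCNT animal 5 as an orange star and ticks at the group means. Interferon-stimulated genes lie at -0.53 to -0.07 in SCNT animals and at -0.22 to 0.10 in IVF-ET animals, and the trophoblast list lies at -0.96 in 1 SCNT animal.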

How the data were processed

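Members, gene lists and tests were chosen with earlier results of these data known. The deposited values are log ratios of each array, taken here as log2, with medians near 0 as the authors deposited them; per the labels' protocols, cDNA made with aminoallyl dUTP carried Cy3 or Cy5. Normalisation method, log base and sign are not given in the sources used here. They were read as already turned to the tissues, which no source states, so no array was turned. Reading them as dye ratios is an alternative that turns 1 array of each animal. It takes off what the 2 arrays share and keeps what sets them apart. Adjacent duplicate spots were averaged, arrays centred on their median, and the 2 arrays of an animal averaged, which leaves 1 value per animal. This cancels dye effects where both arrays have a value, which held in all 9 animals for 13558 probes. Otherwise the array with a value was used alone. A probe was tested with values in at least 4 SCNT and 3 IVF-ET animals. limma 3.58.1 in R 4.3.3 (lmFit, eBayes) gave the two-sided difference and the mean over 9 animals, adjusted by Benjamini-Hochberg over all probes, with 0.05 as the threshold. The script was tested on simulated data.

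Symbols came from the platform annotation, which can be old: 8645 probes had 1 symbol, 105 several and 5074 were unlisted. Of the annotated, 8620 had a gene ID in the ARS-UCD2.0 table, which updated 0 symbols. A gene was represented by its probe with most values. Named are, per direction, the 10 genes with the smallest p, the 5 with the largest difference without overlap and the 8 with the largest mean on 1 side in all animals, from each list up to 4 members with the smallest p, and IGHG1. From 29 lists, a count at an unadjusted p under 0.05 describes and calls nothing. Alternatives were another reading of the sign, the dye effect, centring, scaling, filters, weights, a robust prior, a random block, AI animals in the fit, IVF-ET replicate 3, and each animal left out. Taking off a running median in table order was added after the data were seen.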

Additional observations from a re-analysis of the deposited data

Results flagged for a closer look

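In groups of 4 or 5 animals, 1 animal lay far from the others of its group in 17 of 166 groups checked, where chance alone marks some. SCNT replicate 5 was that animal for the SD over probes (0.701) and for the ratios of BGN (-3.24), C1S (-4.60), AGRN (-2.81), DYNC1H1 (-1.93), CCN2 (1.77), RAB3A (-0.48) and ATP2A2 (0.82). SCNT replicate 3 was it for the median of the trophoblast list (-0.96). SCNT replicate 2 was it for PCP4 (-0.12), and SCNT replicate 1 for CXCL8 (-0.35) and IGHM (0.15). Among IVF-ET animals replicate 5 was it for SPA17 (0.46), EML2 (-0.10) and IGFBP6 (-0.81), replicate 1 for IGF2 (-0.64) and replicate 4 for GUCY1B1 (0.092).

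Among the genes picked for this report, 9 had all SCNT animals on one side of 0 and all IVF-ET animals on the other. Of all 13820 tested probes, 74 did. These 9 genes were picked by a small p or by groups without overlap, so the separation is in part built into the choice. The differences were 0.64 for MSRB3, 0.40 for THAP4, 0.40 for C19H17orf75, 0.53 for LRATD1, -0.49 for SUPT6H, -0.54 for RAB33A, -0.42 for ITCH, -1.22 for BGN and -0.74 for DYNC1H1. None of these passed the adjusted threshold in limma.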

How the results depend on the processing

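No probe passed the adjusted threshold under any of the 22 alternatives, while 396 to 1065 had an unadjusted p under 0.05. All 20 leading genes kept their sign under every alternative except the reading as dye ratios, where 18 did and 1 had an unadjusted p under 0.05. They were chosen by the p of this contrast, so a kept sign is in part built into the choice. No paired analysis was possible because the replicate numbers name different animals in each group and the labels carry no pairing; with the animal as a random block on its 2 arrays the regional count was 862.

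The count of probes with a regional mean was less stable than the null result. Reading the values as dye ratios gave 124, and it was 861 or 0 once IVF-ET replicate 3 was added with its first or second array turned, 1166 with array weights, and 346 to 1148 with single animals left out, highest without SCNT replicate 5. The share of these farther from 0 in SCNT animals was 29.0% as dye ratios, 61.4% with replicate 3 and its first array turned, 64.8% with weights, and 64.5% to 84.9% with single animals left out, highest without IVF-ET replicate 1. Probes without overlap numbered 128 as dye ratios, 151 or 184 with replicate 3, and 482 to 849 with fewer animals. The difference in the SD over probes was -0.0284 as dye ratios (exact permutation p = 0.484). The causes were not tested. Without scanner intensities, how far a spot lay above background is unknown, so dim probes could not be set apart.

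Read as dye ratios, the difference turned for MSRB3 (-0.11), EML2 (-0.10), CCDC88C (-0.026), C1S (0.043), LOC613966 (-0.35), CCN2 (0.00011), MGP (-0.31), GJA1 (-0.11), COL6A3 (0.078), LOC513055 (0.18), ZNFX1 (0.20), RSAD2 (0.27), TNC (0.014), TJP1 (-0.044), CLU (0.022), TKDP4 (0.11), PAG2 (0.040), HTRA1 (0.0052), SLC1A4 (-0.0090), RAB3A (0.0019) and CASQ1 (0.0060). With replicate 3 kept it turned for SLC18A2 (-0.0013), CCN2 (0.56) and GJA1 (-0.78), with scaled arrays for GJA1 (-0.033), with weights for MGP (-0.14) and GJA1 (-0.055), and with the running median for CCN2 (0.018). With single animals left out, the differences that turned ranged from -0.12 to 0.34 for SLC18A2 (negative without SCNT replicates 2 or 3 or IVF-ET replicate 4), from -0.11 to 0.39 for MGP (negative without SCNT or IVF-ET replicate 5), from -0.083 to 0.25 for GJA1 (negative without SCNT replicate 5 or IVF-ET replicate 4), and from -0.29 to 0.053 for CCN2 and -0.32 to 0.041 for LOC513055 (positive without IVF-ET replicate 1).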
